A study of Homo sapiens with 8 samples.

Results

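The genes described here are 48 components of TGF-beta and BMP signalling: ligands, receptors, extracellular antagonists and latency proteins, SMADs, their intracellular regulators and the ID target genes. They were chosen by gene symbol. A gene was measured where the annotation pairs its symbol with a transcript cluster (a group of probes that reports 1 gene), which held for 46 of the 48, out of 17709 clusters with a symbol. TGFB2 and BMPR1A are not analysed here. Each measured gene had 1 cluster.

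The samples are 8 xenograft tumours of SK-OV-3, a line of human ovarian cancer, raised in nude mice. The implanted cells of 4 tumours carried pIND_BORA, a vector that overexpresses BORA, which helps Aurora A to switch on PLK1 before mitosis. Those of the 4 others carried pIND_EV, the empty vector (EV). The comparison asks which of these genes differ when BORA is overexpressed. Nude mice lack mature T cells and keep other host cells, and human probes can read mouse transcripts where sequences allow. The labels give no age or sex of the mice and no inducing agent, and do not say whether the tumours came from separate animals, cell pools or clones. The p-values thus speak only to the spread among these 8 arrays, part of which may be technical.

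TGF-beta family ligands are dimers that are often secreted in latent or antagonist-bound form. They assemble type 1 and type 2 receptor kinases, and the active type 1 receptor phosphorylates SMAD proteins, SMAD2 and SMAD3 for TGF-beta and activin and SMAD1, SMAD5 and SMAD9 for BMPs. These join SMAD4, enter the nucleus and act on target genes, among them the ID genes downstream of BMP and the inhibitory SMADs that shut the pathway down. In ovarian surface epithelium and many carcinomas TGF-beta restrains growth at first, and tumours often lose this response while keeping the effect of the ligand on matrix and motility.

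All values are read as log2 signals because of their range; the labels give no log base, and folds hold only on that reading. Of the arrays, EV replicate 1 stands apart, and each result is given over all 8 arrays and over the 7 without it. BORA checks the labels: it was at 12.57, 12.55, 12.91 and 13.00 in BORA tumours and at 6.16, 6.15, 6.89 and 7.32 in EV tumours (limma adjusted p = 2.38e-05). Of 9 measured ovarian carcinoma markers, PAX8, EPCAM, KRT8, KRT18 and KRT19 were above the 95th percentile of the 612 negative controls in all 8 arrays, and MUC16, WT1, SOX17 and EMX2 in 0. PAX8 was higher in BORA tumours without overlap (1.10 over 8 arrays, limma adjusted p = 0.199). KRT19 was lower with overlap (-0.95, adjusted p = 0.329), and EPCAM, KRT8 and KRT18 differed by -0.14, 0.02 and 0.40. Squamous epithelial markers had a summed signal (log2) of 12.87 to 15.03 in BORA tumours, against 18.53 in EV replicate 1 and 13.13 to 14.02 in the other EV tumours. Of the 11 measured, 2 exceeded the percentile in each BORA tumour, 9 in EV replicate 1 and 1 or 2 in the other EV tumours. Leukocyte markers summed to 11.63 to 12.27 in BORA tumours, against 10.99 in EV replicate 1 and 12.66 to 13.22 in the other EV tumours. Over 7 arrays the leukocyte marker PTPRC fell by 2.07 on the log2 scale (limma adjusted p = 0.0194). CD68, the other leukocyte marker above the negative controls, differed by 0.38, and the remaining 6 of the 8 exceeded them in 0 arrays. The summed stromal signal was 15.17 to 15.69 in BORA tumours and 14.84 to 15.81 in EV tumours, with COL1A1 and COL1A2 above the controls in all 8 arrays. LUM was higher in BORA tumours without overlap over 7 arrays (2.07, adjusted p = 0.112), and PDGFRA and THY1, both dim in all 8 arrays, were lower without overlap. In bulk tumour RNA, fewer cells of a type and less RNA per cell cannot be told apart.

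The negative control percentile averaged 7.82 over BORA arrays and 8.0 over EV arrays. By group mean, 26 of the 46 genes exceeded it in BORA tumours and 21 in EV tumours, 56.5% and 45.7%, where 42.2% and 39.4% of all clusters did. The 21 above it in both groups were TGFB1, BMP1, BMP2, TGFBR1, TGFBR2, BMPR2, ACVR1B, ACVR2A, LTBP1, SMAD1, SMAD2, SMAD3, SMAD4, SMAD5, SMAD7, SMURF1, SMURF2, SKIL, TGIF1, ID1 and ID2. BMPR1B, ACVR1, ENG, LTBP3 and SKI exceeded it in BORA tumours and not in EV tumours. Each group was held to its own percentile. The EV means of BMPR1B, ACVR1 and ENG (7.99, 7.96 and 7.92) lay above the BORA percentile, and those of LTBP3 and SKI below it. Of these 5 genes, BMPR1B, ENG and LTBP3 also exceeded the percentile in EV replicates 2 to 4 taken alone. The remaining 20 lay below the percentile in both groups. They include TGFB3, BMP4 to BMP7, the inhibin and activin subunit genes, TGFBR3, FST, NOG, GREM1, CHRD, SMAD6, SMAD9, ID3 and ID4. A difference in these is a difference between dim signals.

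BMPR1B was the only gene of the 46 that passed. It encodes a type 1 BMP receptor, and it was higher in BORA tumours over 8 arrays and over 7. The other 45 did not pass in limma at an adjusted p under 0.05, in either set of arrays. Of all clusters, 0.102% rose over 8 arrays and 0% fell, and over 7 arrays 0.435% rose and 0.0791% fell. At an unadjusted p under 0.05, 4 genes lay higher and 0 lower over 8 arrays, where 7.37% and 7.17% of all clusters did. Over 7 arrays 7 lay higher and 1 lower, where 7.7% and 7.62% of all clusters did. The groups did not overlap over 8 arrays for 4 genes that were higher (TGFB1, BMP4, BMPR1B and SMAD2) and 1 that was lower (FST), together 10.9%. The shares of all clusters were 4.45% and 4.91%, together 9.36%, so the members' share is near the background. Over 7 arrays TGFBR2, ACVR1, ACVR1B and ID1 joined the higher genes, which made 9 of 46 (19.6%), beside 6.66% higher and 7.68% lower of all clusters, together 14.3%. The median difference of the 46 was 0.03 over 8 arrays, beside -0.03 for all clusters, and 0.11 over 7 arrays, beside -0.03.

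**Figure D1:**
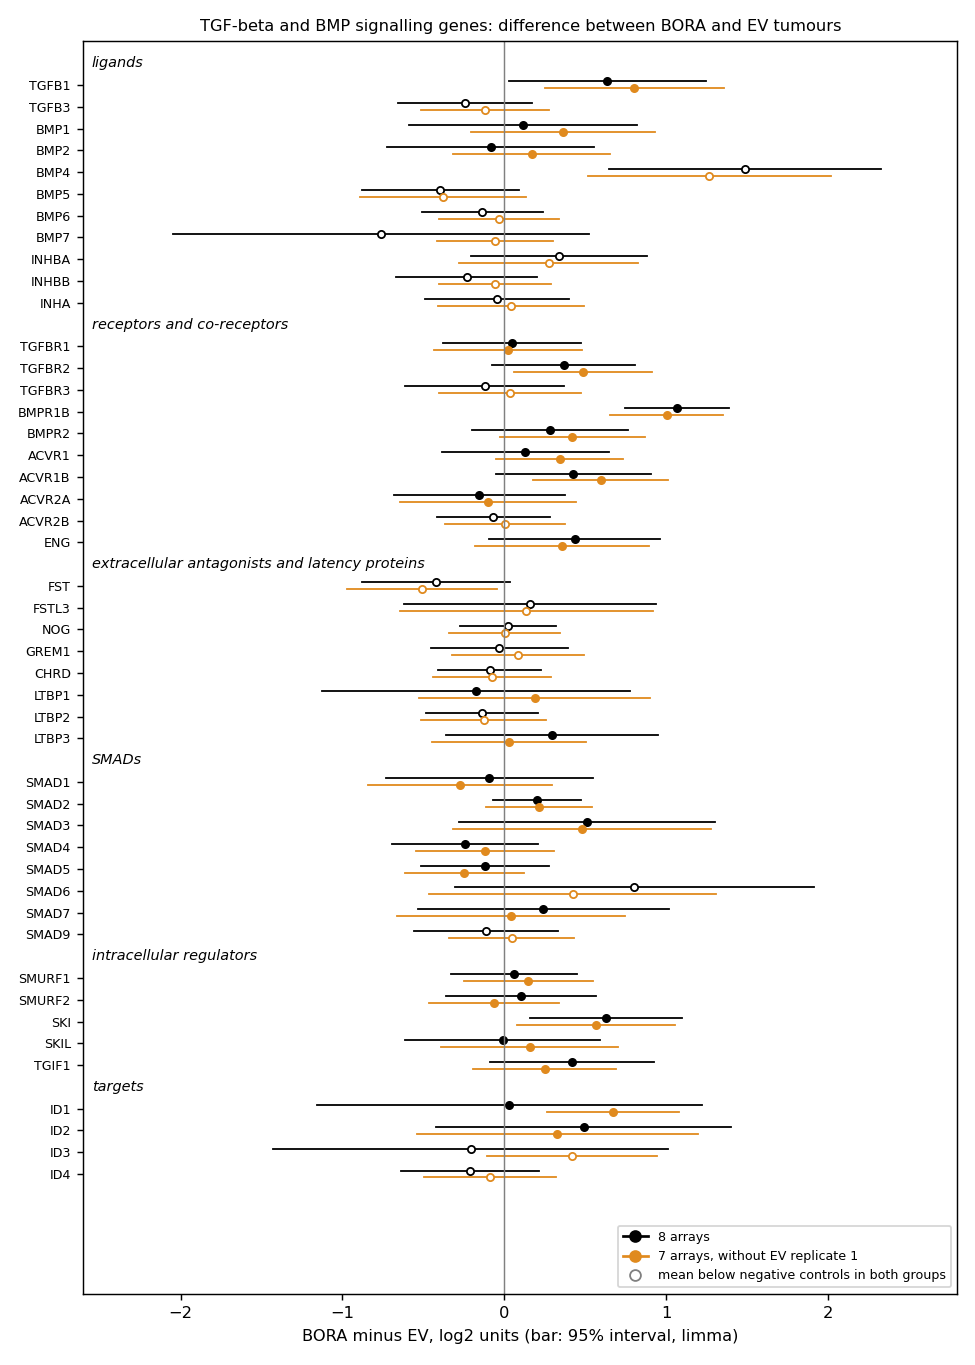
Difference between BORA and EV tumours (BORA minus EV, log2 units, x axis) for each of the 46 measured genes, by role, with limma's 95% interval, over 8 arrays (black) and over 7 arrays without EV replicate 1 (orange). Open points lie below the negative controls in both groups; BMPR1B, at 1.07 and 1.00, was the only gene that passed.

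The share of lower genes differed between dim genes and the rest. Among the 20 genes dim in both groups 15 had a negative difference (75%), where 67.4% of all such clusters did. Of the other 26 genes 26.9% were lower, where 34.7% of all such clusters were. This split is not independent of direction, since a gene counted as not dim through either group. In BORA tumours alone 5 members exceeded the negative controls, and in EV tumours alone 0. Of all clusters 609 and 124 did, which favours positive differences among those not dim. After quantile normalization the shares for these genes were 55% and 46.2%, and those for all clusters 54.7% and 49.3%. The part of the arrays' spread of values in the small differences below was not tested.

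**Figure D2:**
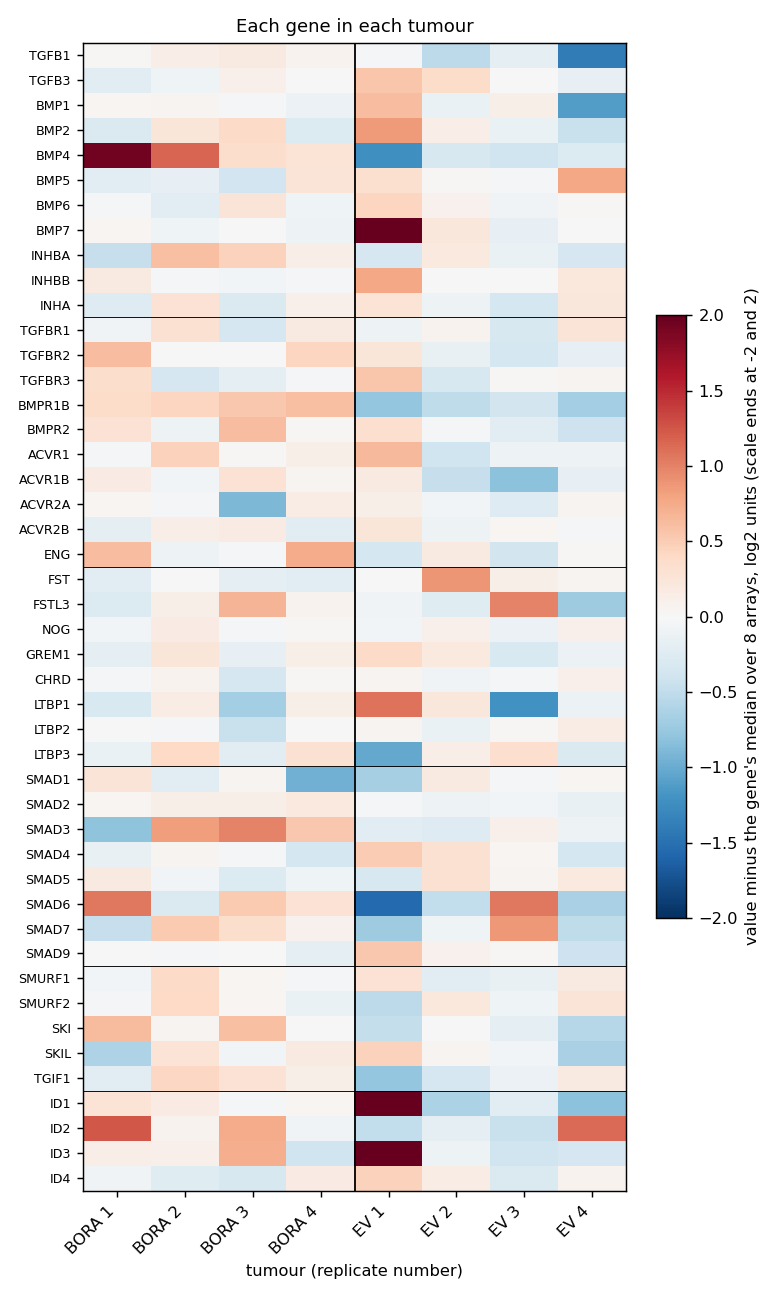
Each of the 46 genes (rows, in the order of their roles) in each tumour (columns, BORA left of EV), as the value minus the gene's median over the 8 arrays, in log2 units. BMP7 and ID3 reach the end of the colour scale in EV replicate 1. ID1 is near it there and BMP4 in BORA replicate 1, and BMPR1B is high in 4 BORA tumours and low in 4 EV tumours.

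Among the ligands, 0 of 11 passed. TGFB1, the main TGF-beta of epithelium, was at 11.21, 11.31, 11.36 and 11.26 in BORA tumours and at 11.15, 10.67, 10.996 and 9.78 in EV tumours. Every BORA tumour lay above every EV tumour, and the EV values spread more widely, with EV replicate 4 lowest. The means were 11.28 ± 0.062 in BORA tumours and 10.65 ± 0.61 in EV tumours (SD, n = 4 each). The difference was 0.64 (95% interval 0.03 to 1.24, limma adjusted p = 0.328), and 0.80 over 7 arrays (0.25 to 1.36, adjusted p = 0.173).

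BMP4, a ligand of the BMPR1A and BMPR1B receptors, had the largest difference of the 46 and lay below the negative controls in all 8 arrays. Its values were 6.66, 5.90, 5.09 and 5.01 in BORA tumours and 3.51, 4.41, 4.33 and 4.46 in EV tumours. The groups did not overlap, BORA replicate 1 was highest and EV replicate 1 lowest. The difference was 1.49 (SE 0.37, limma adjusted p = 0.175) and 1.27 over 7 arrays (SE 0.34, adjusted p = 0.124). No fold is given, since both groups are dim.

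BMP1 is grouped with the ligands by name but encodes a metalloprotease that processes procollagen and releases latent ligands. It was at 9.35, 9.38, 9.28 and 9.20 in BORA tumours and at 9.94, 9.19, 9.43 and 8.20 in EV tumours. The EV tumours lay on both sides of the BORA tumours (difference 0.11, 95% interval -0.59 to 0.82). BMP2 was the other ligand above the negative controls, with a difference of -0.08 over 8 arrays and 0.17 over 7. The 7 further ligands were dim, with differences from -0.76 (BMP7) to 0.34 (INHBA, the activin A subunit) over 8 arrays.

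Among the receptors and co-receptors, 1 of 10 passed, with a higher level in BORA tumours, and 9 did not. BMPR1B (cluster TC0400008183.hg.1) was at 8.94, 9.0, 9.11 and 9.17 in BORA tumours and at 7.80, 8.06, 8.20 and 7.89 in EV tumours. The groups were separated by a gap larger than the range within either, and EV replicate 1 was the lowest of the 8. The means were 9.05 ± 0.10 in BORA tumours and 7.99 ± 0.18 in EV tumours (SD, n = 4 each), a rise of 2.09-fold. The log2 difference was 1.07 (SE 0.14, 95% interval 0.74 to 1.39, limma adjusted p = 0.0365).

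Over 7 arrays the rise of BMPR1B was 2.0-fold (1.00 on the log2 scale with an SE of 0.16, limma adjusted p = 0.0250). It exceeded the negative control percentile in 7 of 8 arrays, all but EV replicate 1, and the EV mean lay just below that percentile, so the denominator of the fold is a dim signal. The call over 8 arrays ended when any 1 array other than EV replicate 1 was left out, although the difference stayed at 1.00 to 1.14 (adjusted p = 0.0250 to 0.153 over the 8 cases). Over 7 arrays, leaving out a further array ended it in 4 of 7 cases (adjusted p = 0.0403 to 0.0907), as did the ordinary test without moderation (0.252). With quantile normalization the difference was 0.96 (adjusted p = 0.0650) over 8 arrays and 0.91 (adjusted p = 0.0430) over 7.

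The annotation of RefSeq gives BMPR1B 3 promoters, which are shown because it is the gene that rose. The 250 bases before each start are printed 5′ to 3′ on the gene's strand, from GRCh38.p14. Capitals mark matches to motifs associated with SMAD binding, CAGACA and GGAGCC, on either strand.
BMPR1B promoter 1 (GRCh38.p14, chr4:94757705-94757954, plus strand): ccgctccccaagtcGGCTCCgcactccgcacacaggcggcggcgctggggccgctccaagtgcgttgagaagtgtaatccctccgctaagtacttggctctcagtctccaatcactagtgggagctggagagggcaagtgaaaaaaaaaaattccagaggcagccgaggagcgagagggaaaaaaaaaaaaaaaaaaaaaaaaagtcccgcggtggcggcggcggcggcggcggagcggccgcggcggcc
BMPR1B promoter 2 (GRCh38.p14, chr4:94995590-94995839, plus strand): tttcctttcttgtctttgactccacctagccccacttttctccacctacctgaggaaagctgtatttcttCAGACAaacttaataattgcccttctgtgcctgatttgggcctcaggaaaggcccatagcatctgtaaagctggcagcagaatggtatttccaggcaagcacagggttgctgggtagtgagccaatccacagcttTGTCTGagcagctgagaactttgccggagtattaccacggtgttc
BMPR1B promoter 3 (GRCh38.p14, chr4:95051427-95051676, plus strand): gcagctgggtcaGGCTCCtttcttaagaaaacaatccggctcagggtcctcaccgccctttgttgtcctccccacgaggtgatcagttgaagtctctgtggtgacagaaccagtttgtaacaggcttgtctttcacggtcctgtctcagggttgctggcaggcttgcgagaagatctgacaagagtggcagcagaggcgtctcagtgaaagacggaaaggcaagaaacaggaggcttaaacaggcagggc
The motifs searched on both strands were GTCTAGAC and CAGACA as SMAD-binding elements, GGCGCC and GGAGCC as GC-rich SMAD motifs, and CACCTG as an E-box, in the same 250 bases of 35116 human promoters, of which 80 belong to 43 of the 48 genes. The motifs do not contain each other. CAGACA stood in 13.6% of all promoters and in 16 of the 80 (20%), GGAGCC in 30.6% and in 36 (45%), and GGCGCC in 16.4% and in 17 (21.3%). GTCTAGAC stood in 0.182% of all and in 1 of the 80, and CACCTG in 17.5% and in 9 (11.3%). Promoter 2 of BMPR1B held CAGACA on both strands, and promoters 1 and 3 held 1 match to GGAGCC each. A match is a description of the letters, and the array does not tell which promoter was in use.

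**Figure D3:**
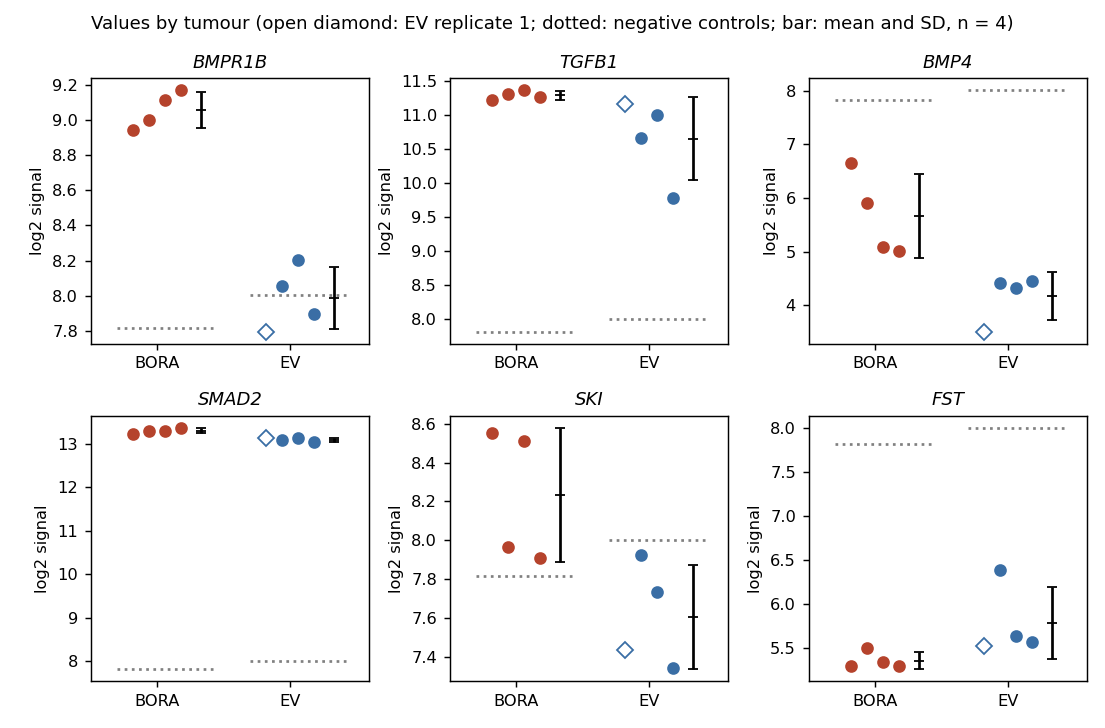
Log2 signal (y axis) in each tumour of 6 genes, BORA left of EV, with the mean and SD (n = 4) beside the points and the negative control percentile dotted. BMPR1B, TGFB1, BMP4 and SMAD2 do not overlap upward, FST does not overlap downward, and SKI overlaps by 1 tumour on each side.

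The TGF-beta receptors were bright in both groups. TGFBR2, the type 2 receptor of TGF-beta, was at 12.78, 12.16, 12.17 and 12.59 in BORA tumours and at 12.41, 12.01, 11.81 and 12.00 in EV tumours. EV replicate 1 lay inside the BORA range and the other EV tumours below it. The difference was 0.37 over 8 arrays (95% interval -0.08 to 0.81) and 0.48 over 7 (0.06 to 0.91, limma adjusted p = 0.268). TGFBR1, its type 1 partner, differed by 0.05 and 0.02, and the co-receptor TGFBR3 was dim.

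Of the type 2 BMP receptor BMPR2, the values were 10.65, 10.26, 10.99 and 10.38 in BORA tumours and 10.70, 10.35, 10.15 and 9.95 in EV tumours. The groups overlapped (difference 0.28, 95% interval -0.20 to 0.77). ACVR1B, the type 1 receptor for activin, was at 9.51, 9.30, 9.63 and 9.40 in BORA tumours and at 9.53, 8.89, 8.53 and 9.19 in EV tumours. EV replicate 1 was again the EV tumour inside the BORA range, and over 7 arrays the difference was 0.59 (95% interval 0.18 to 1.01, limma adjusted p = 0.180), against 0.43 over 8.

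ACVR1, a type 1 receptor for BMPs, was at 7.94, 8.41, 7.97 and 8.07 in BORA tumours and at 8.60, 7.55, 7.86 and 7.85 in EV tumours, the highest value being that of EV replicate 1. The difference was 0.13 over 8 arrays and 0.34 over 7 (95% interval -0.05 to 0.73). The activin type 2 receptors ACVR2A and ACVR2B differed by -0.15 and -0.07 over 8 arrays, and ACVR2B was dim.

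ENG, endoglin, is a TGF-beta co-receptor known for its high level in endothelium. It was at 8.67, 7.94, 8.02 and 8.78 in BORA tumours and at 7.69, 8.23, 7.68 and 8.08 in EV tumours. BORA replicates 1 and 4 were the high tumours and the groups overlapped (difference 0.43, 95% interval -0.10 to 0.97, limma adjusted p = 0.431). The summed signal (log2) of 8 endothelial markers was 10.32 to 11.09 in BORA tumours and 8.99 to 9.56 in EV tumours, without overlap. Of these 8, 2 or 3 exceeded the negative controls in a BORA tumour and 0 or 1 in an EV tumour, while VWF, KDR, TEK, TIE1 and CLDN5 exceeded them in 0 of 8 arrays. ERG was the marker of the 8 that passed (2.40 over 8 arrays, limma adjusted p = 0.0365). CDH5 and PECAM1 were also higher (2.28 and 1.56) but did not pass, and CDH5 was dim by group means. VWF, KDR, TEK, TIE1 and CLDN5 went the other way (-0.33, -0.06, -0.49, -0.22 and -0.49). The summed signal is thus not a rise of the whole set. The part of these markers in the ENG and BMPR1B values was not tested.

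Of the extracellular antagonists and latency proteins, 0 of 8 passed. LTBP1, which holds latent TGF-beta in the matrix, was at 14.15, 14.60, 13.78 and 14.57 in BORA tumours and at 15.53, 14.69, 13.24 and 14.34 in EV tumours. EV replicates 1 and 3 were the highest and lowest of the 8, so the EV tumours enclosed the BORA tumours. The difference was -0.17 (95% interval -1.13 to 0.78) over 8 arrays and 0.19 over 7, a turn in sign. LTBP3, of the same family, was at 7.85, 8.38, 7.75 and 8.28 in BORA tumours and at 6.96, 8.11, 8.31 and 7.69 in EV tumours. EV replicate 1 was its lowest, and the difference of 0.30 over 8 arrays was 0.03 over 7.

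FST, follistatin, binds and neutralises activin, and it was dim in all 8 arrays. Its values were 5.30, 5.49, 5.33 and 5.29 in BORA tumours and 5.52, 6.39, 5.63 and 5.57 in EV tumours. Every BORA tumour lay below every EV tumour, by a small margin at the nearest, and EV replicate 2 stood highest. The difference was -0.42 over 8 arrays (95% interval -0.88 to 0.04, limma adjusted p = 0.377) and -0.51 over 7 (adjusted p = 0.287), and after quantile normalization -0.31 and -0.41. The BMP antagonists NOG, GREM1 and CHRD were dim and differed by 0.02, -0.03 and -0.09. FSTL3, a relative of follistatin, differed by 0.16, and LTBP2 by -0.14.

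Of the SMADs, 0 of 8 passed. SMAD2, which carries the TGF-beta and activin signal, was at 13.23, 13.29, 13.30 and 13.37 in BORA tumours and at 13.13, 13.08, 13.13 and 13.04 in EV tumours. The groups did not overlap, but the gap was small: the difference was 0.20 (SE 0.12, limma adjusted p = 0.470), a 1.15-fold change. SMAD3 was at 9.38, 11.03, 11.19 and 10.73 in BORA tumours and at 9.98, 9.93, 10.30 and 10.09 in EV tumours. BORA replicate 1 was the lowest of the 8 while the other BORA tumours were the highest, and the difference was 0.51 (95% interval -0.28 to 1.30).

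SMAD4, the partner shared by both branches, was at 11.97, 12.17, 12.07 and 11.75 in BORA tumours and at 12.61, 12.42, 12.15 and 11.76 in EV tumours. The difference of -0.24 had a 95% interval of -0.70 to 0.21. SMAD1, of the BMP branch, was at 10.92, 10.43, 10.72 and 9.70 in BORA tumours and at 9.99, 10.83, 10.63 and 10.69 in EV tumours. BORA replicate 4 and EV replicate 1 were its low tumours (difference -0.09, 95% interval -0.73 to 0.55). SMAD5, of the same branch, was at 14.66, 14.42, 14.21 and 14.40 in BORA tumours and at 14.16, 14.78, 14.54 and 14.68 in EV tumours. It differed by -0.12 over 8 arrays and -0.25 over 7 (95% interval -0.62 to 0.12).

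Of the inhibitory SMADs, which are feedback targets of the pathway, SMAD7 was at 9.54, 10.53, 10.35 and 10.09 in BORA tumours and at 9.29, 9.91, 10.86 and 9.49 in EV tumours. EV replicate 3 was its highest tumour and EV replicate 1 its lowest. The difference was 0.24 over 8 arrays (95% interval -0.53 to 1.02) and 0.04 over 7. SMAD6, dim in all arrays, differed by 0.80 and 0.42. SMAD9, a SMAD of the BMP branch and not an inhibitory one, differed by -0.11 and 0.05.

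Among the intracellular regulators, 0 of 5 passed. SKI, a corepressor that binds SMADs, was at 8.55, 7.96, 8.51 and 7.91 in BORA tumours and at 7.43, 7.92, 7.73 and 7.34 in EV tumours. BORA replicates 1 and 3 were high, and BORA replicate 4 and EV replicate 2 met at the boundary. The difference was 0.63 (95% interval 0.16 to 1.10, limma adjusted p = 0.252) over 8 arrays and 0.57 over 7 (adjusted p = 0.256). Its relative SKIL, a TGF-beta target and corepressor, differed by -0.01 and 0.16.

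TGIF1, a homeobox corepressor of SMADs, was at 13.09, 13.73, 13.60 and 13.43 in BORA tumours and at 12.54, 12.96, 13.19 and 13.49 in EV tumours. EV replicates 3 and 4 lay inside the BORA range (difference 0.42, 95% interval -0.09 to 0.92). SMURF2, a ubiquitin ligase for SMADs and receptors, was at 11.32, 11.76, 11.40 and 11.23 in BORA tumours and at 10.84, 11.57, 11.28 and 11.62 in EV tumours. The groups overlapped, with 0.10 over 8 arrays and -0.06 over 7. SMURF1 differed by 0.06 and 0.15.

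The ID genes encode inhibitors of basic helix-loop-helix factors and are direct BMP targets, and 0 of 4 passed. ID1 was at 11.16, 11.05, 10.85 and 10.93 in BORA tumours and at 12.88, 10.25, 10.67 and 10.06 in EV tumours. EV replicate 1 stood above all 7 other tumours, and the other EV tumours stood below every BORA tumour. The difference was therefore 0.03 over 8 arrays (95% interval -1.16 to 1.22, limma adjusted p = 0.984). Over 7 arrays it was 0.67 (0.26 to 1.08, adjusted p = 0.132), a 1.59-fold difference that did not pass.

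ID2 was at 9.97, 8.81, 9.49 and 8.67 in BORA tumours and at 8.25, 8.55, 8.29 and 9.88 in EV tumours. EV replicate 4 lay just under the highest BORA tumour, and the differences were 0.49 and 0.33. ID3, dim in all 8 arrays, was at 4.79, 4.75, 5.38 and 4.25 in BORA tumours and at 6.88, 4.55, 4.25 and 4.32 in EV tumours. Like ID1 it was highest in EV replicate 1, and over 7 arrays its difference was 0.42 (95% interval -0.11 to 0.95), against -0.21 over 8. ID4 differed by -0.21 and -0.09.

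The promoters of ID1 and ID3 are shown because both genes were highest in the same tumour, with the same motifs in capitals and 250 bases each.
ID1 promoter (GRCh38.p14, chr20:31605039-31605288, plus strand): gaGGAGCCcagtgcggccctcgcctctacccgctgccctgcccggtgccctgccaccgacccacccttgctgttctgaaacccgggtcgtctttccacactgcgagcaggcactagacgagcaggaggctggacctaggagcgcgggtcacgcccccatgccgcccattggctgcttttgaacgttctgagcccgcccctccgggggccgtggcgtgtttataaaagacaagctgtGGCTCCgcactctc
ID3 promoter (GRCh38.p14, chr1:23559502-23559751, minus strand): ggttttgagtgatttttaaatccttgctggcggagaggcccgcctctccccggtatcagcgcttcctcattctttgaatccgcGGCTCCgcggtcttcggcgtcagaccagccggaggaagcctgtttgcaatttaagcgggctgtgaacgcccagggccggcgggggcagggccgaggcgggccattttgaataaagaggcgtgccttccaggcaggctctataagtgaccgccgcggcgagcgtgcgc
ID1 held GGAGCC on both strands, and ID3 held 1 match. Neither held the other 4 motifs within these bases, which says nothing of sequence farther away.

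EV replicate 1 held the extreme value of more of these genes than any other tumour. It was the highest tumour for 17 of the 46 and the lowest for 9, together 56.5% of them, where it was the extreme for 42.8% of all clusters. Each of the other 7 tumours was the extreme for 4 to 13 of the 46. Besides ID1 and ID3, BMP7 stood apart there, a BMP best known from kidney and bone. BMP7, ID3, SMAD6 and BMP2 are named here after their values were seen. BMP7 was at 3.76, 3.62, 3.71 and 3.62 in BORA tumours and at 6.54, 3.94, 3.55 and 3.71 in EV tumours.

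Set against the mean of EV replicates 2 to 4, EV replicate 1 was higher by 2.81 for BMP7, 2.55 for ID1, 2.50 for ID3, 1.45 for LTBP1 and 1.01 for BMP2. SMAD6 was at 4.95 in EV replicate 1 and at 6.47 ± 0.94 in EV replicates 2 to 4 (SD, n = 3), and LTBP3 at 6.96 and 8.04 ± 0.32. This is the tumour with the high squamous marker signal given above. Whether these values and that marker signal share a source was not tested.

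**Figure D4:**
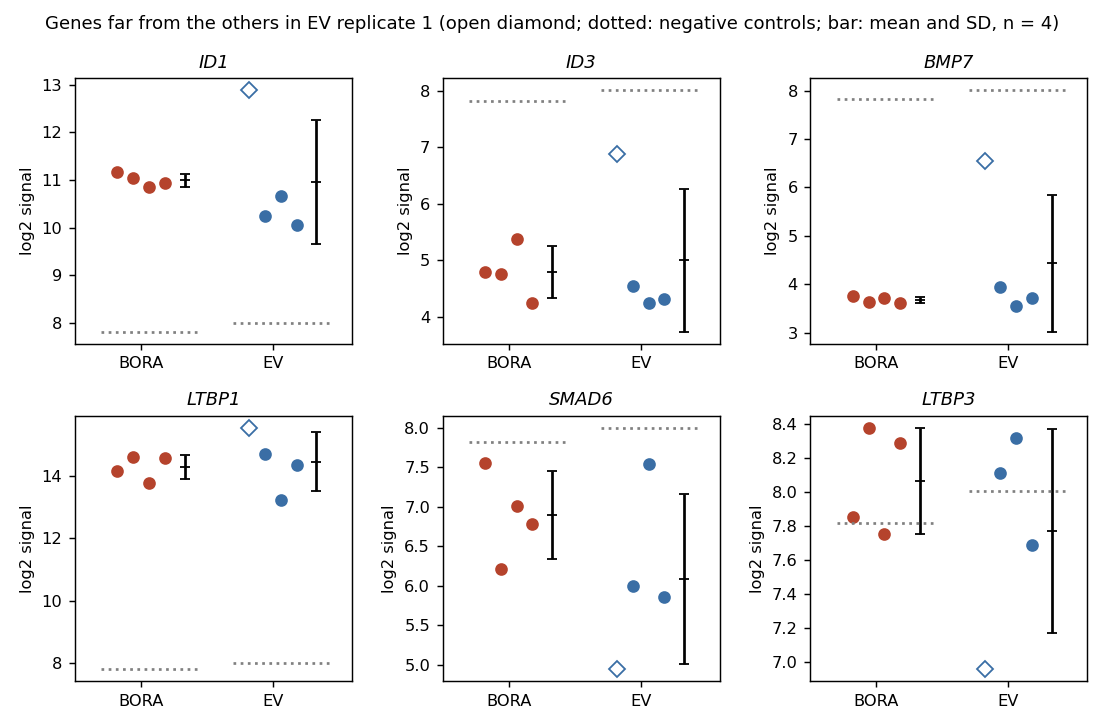
Log2 signal (y axis) in each tumour of 6 genes that were far from the other tumours in EV replicate 1 (open diamond), BORA left of EV, with mean and SD (n = 4) and the negative control percentile dotted. ID1, ID3, BMP7 and LTBP1 were highest there, and SMAD6 and LTBP3 lowest.

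Of 81 further pathway genes listed by role (ligands, receptors, extracellular regulators, intracellular components and transcriptional targets), 72 were measured. By group mean 28 of them exceeded the negative controls in both groups and 1 in BORA tumours alone. In limma 0 of 72 passed over 8 arrays; without adjustment 3 higher and 5 lower genes had a p under 0.05. Over 7 arrays 1 rose and 0 fell, with 8 higher and 6 lower unadjusted. Their median difference was -0.06 over 8 arrays and -0.01 over 7.

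The gene that rose over 7 arrays was LTBP4, a latency protein of elastic matrix. It was at 7.89, 8.11, 7.78 and 8.09 in BORA tumours and at 9.70, 6.86, 7.17 and 6.40 in EV tumours. EV replicate 1 lay above every BORA tumour and the other EV tumours below every one, the arrangement seen for ID1. EV replicates 2 to 4 each lay below the negative controls, so no fold is given. BORA replicate 4 lay below its own percentile as well (8.09 against 8.13), and the BORA mean of 7.97 was just above the BORA percentile of 7.82. The call thus concerns signals near or under the negative controls. Over 7 arrays the difference was 1.16 (SE 0.20, limma adjusted p = 0.0421), and over 8 arrays 0.43 (adjusted p = 0.760). Leaving out a further array ended the call in 6 of 7 cases, with adjusted p between 0.0290 and 0.119.

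Of 13 measured further target genes, 0 passed. Their differences were above 0 for 9 and below 0 for 4 over 8 arrays, and for 11 and 2 over 7. Among the lower ones, MYC exceeded the negative controls in 7 arrays. It differed by -0.54 over 8 arrays and -0.73 over 7 (limma adjusted p = 0.459 and 0.266). TGFBI, a secreted matrix protein induced by TGF-beta, was at 14.44, 15.15, 14.77 and 14.48 in BORA tumours and at 11.68, 13.64, 13.67 and 12.11 in EV tumours. Every BORA tumour lay above every EV tumour, and EV replicates 1 and 4 were the low ones. The difference was 1.93 (SE 0.45, limma adjusted p = 0.151), and 1.57 over 7 arrays (adjusted p = 0.0830). JUNB, an AP-1 subunit, was at 8.67, 9.29, 9.87 and 9.31 in BORA tumours and at 9.11, 8.44, 8.32 and 7.78 in EV tumours. It differed by 0.87 over 8 arrays and 1.11 over 7 (adjusted p = 0.278 and 0.101), and EV replicate 1 was the EV tumour that overlapped. CCN1, a matricellular protein, was at 9.25, 9.64, 9.99 and 8.64 in BORA tumours and at 7.92, 9.20, 9.18 and 7.85 in EV tumours. EV replicates 2 and 3 overlapped the BORA tumours, and the differences were 0.84 over 8 arrays and 0.64 over 7. HEY1, dim in all arrays, differed by 0.35 and 0.65.

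Of the further ligands, GDF15, a stress-induced distant member of the family, was at 8.35, 9.36, 11.11 and 9.17 in BORA tumours and at 7.80, 7.86, 8.07 and 8.95 in EV tumours. BORA replicate 3 was far above the rest, and the differences were 1.33 over 8 arrays and 1.20 over 7 (limma adjusted p 0.302 and 0.303). CD109, a TGF-beta co-receptor, was at 11.25, 12.01, 11.29 and 11.73 in BORA tumours and at 12.28, 10.54, 9.93 and 11.40 in EV tumours. The EV tumours enclosed the BORA tumours (0.53 over 8 arrays, 0.95 over 7).

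Of the 10 further genes with the smallest p over 8 arrays, those that were lower were all dim by group means. Outside these 10, genes above the negative controls were also lower, among them MYC, given above, and PMEPA1. PMEPA1 differed by -0.49 over 8 arrays and -0.54 over 7 (limma adjusted p = 0.382 and 0.330). MYC and PMEPA1 are named after their values were seen. BMPER, a BMP-binding protein, was at 5.79, 6.11, 5.64 and 5.74 in BORA tumours and at 6.52, 6.21, 6.57 and 6.18 in EV tumours, without overlap (difference -0.55, limma adjusted p = 0.218). INHBC, LEFTY2, GDF3, BMP3 and GDF10 differed by -0.46, -0.45, -0.49, -0.57 and -0.37 over 8 arrays, with adjusted p between 0.281 and 0.351. MSTN, myostatin, differed by 0.22 over 8 arrays and 0.66 over 7.

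**Figure D5:**
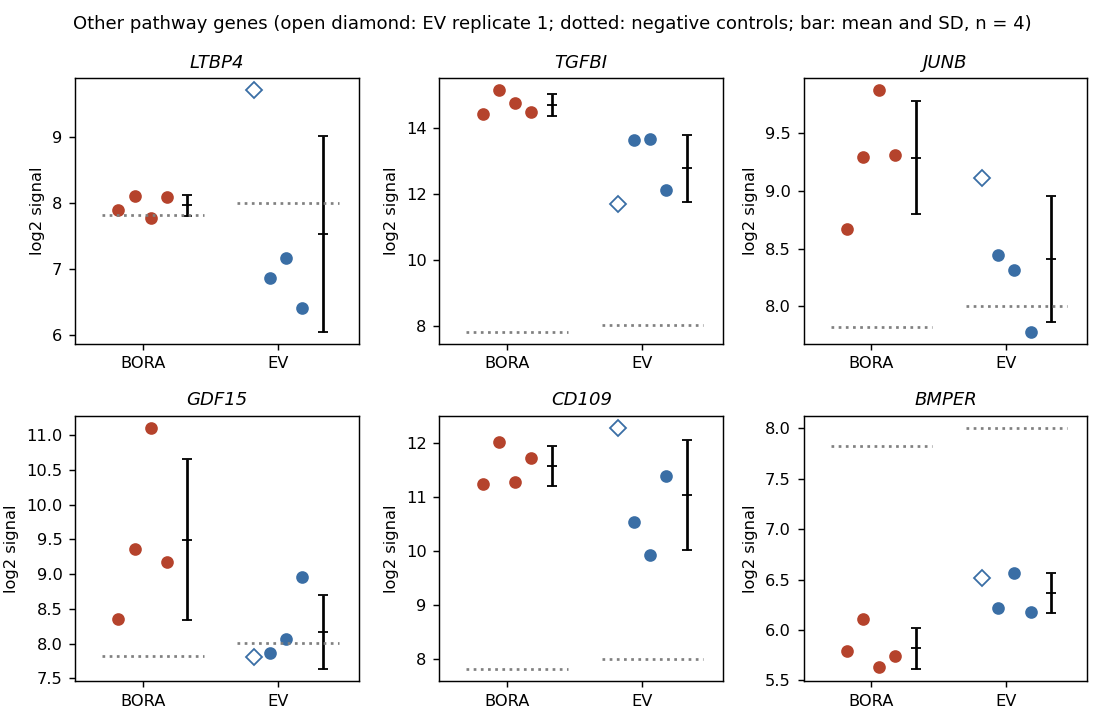
Log2 signal (y axis) in each tumour of 6 further pathway genes, BORA left of EV, with mean and SD (n = 4) and the negative control percentile dotted. TGFBI lies higher and BMPER lower in all 4 BORA tumours, and LTBP4 has EV replicate 1 (open diamond, 9.70) above and the other EV tumours below the BORA tumours.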

How the data were processed

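RNA was measured in 8 tumours, 4 BORA and 4 EV, on 1 Affymetrix array each; groups and replicate numbers come from the sample labels. Per the submitters' processing notes, the authors made the deposited log2 signals in Affymetrix Expression Console. Software version, background correction, summary, normalization and genome build were not given in the sources used here. Row identifiers are of another Affymetrix human design than the Human Gene 1.0 ST array that the series text names. The log base was read from the values. Of 24351 rows, 17709 clusters had 1 gene symbol, and their identifiers were matched to a GRCh38.p14 gene table for current symbols. No further normalization or filter was applied. limma 3.58.1 (R 4.3.3; lmFit, eBayes) tested BORA minus EV over all 17709 clusters, adjusted by Benjamini-Hochberg at a threshold of 0.05, over 8 arrays and over 7 without EV replicate 1. Intervals are limma's unadjusted 95% intervals. The steps were tested on simulated data.

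The brightest cluster stood for a gene. Given by value in every tumour were genes that passed, that did not overlap, the 15 with the largest differences among those above the negative controls, the 2 brightest of each role and, of the further pathway genes, those that passed and the 10 with the smallest p over 8 and over 7 arrays, of which INHBC, LEFTY2, GDF3, BMP3, GDF10, MSTN and HEY1, all dim by group means, are given by difference. The members and lists were chosen with earlier results of these data known. No pair of arrays shared more than 0.0113% of its values. The number of arrays limits the precision. No batch could be tested, since scan dates and slides are not among the labels. Promoter sequences are RefSeq's, GRCh38.p14. Tried as alternatives were quantile normalization, median centring, a block for the replicate number, trend with robust fitting, array weights, the ordinary test, a filter on dim clusters (above the negative controls in at least 3 arrays), all rows, a threshold of 0.1, the mean of a gene's clusters, and leaving out each array.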

Additional observations from a re-analysis of the deposited data

Results flagged for a closer look

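For each of the 46 genes, the highest or lowest tumour of each group of 4 was set against the range of its group. In 7 of 92 cases its gap to the nearest tumour, as a share of the group's range, was above 0.829, the value that chance exceeds in about 1 of 20 groups. EV replicate 1 was that tumour in 3 cases. BMP7 was at 6.54 there against a nearest EV value of 3.94 (gap share 0.868), ID3 at 6.88 against 4.55 (0.885), and BMP4, on the low side, at 3.51 against 4.33 (0.866). The other 4 cases lay in other tumours. FST was at 6.39 in EV replicate 2, above the nearest EV value of 5.63 (0.874). LTBP2 was at 6.20 in BORA replicate 3, below the nearest BORA value of 6.62 (0.940). INHBB was at 4.59 in BORA replicate 1, above 4.39 (0.834), and SMAD9 at 7.61 in BORA replicate 4, below 7.78 (0.837). All 7 genes were dim in both groups by their means.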

How the results depend on the processing

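The labels do not say whether replicate numbers pair the tumours. The deviations of same-numbered tumours from their group means correlated at -0.11, 0.04, 0.07 and -0.02. These values are too few to settle whether any tumours were paired. With the replicate block BMPR1B kept its difference over 8 arrays (1.07, limma adjusted p = 0.177) and had 1.04 over 7 (0.0640), so 0 of the 46 genes passed in either. Over 7 arrays 2 further pathway genes, TGFBI and JUNB, then passed and LTBP4 did not, and the median of the 46 was 0.17. Over 8 arrays 0 of the 46 also passed with quantile normalization, with the intensity trend (BMPR1B adjusted p = 0.0574) and in the ordinary test (0.153). Over 7 arrays 0 of the 46 and 0 further genes passed in the ordinary test, 0 further genes with all rows adjusted over and 2 at a threshold of 0.1. The 7-array median of the 46 was 0.060 after median centring and 0.22 among clusters that passed the filter on dim signals. Leaving out each array gave 0 to 1 of the 46 over 8 arrays and 0 to 1 over 7, 0 to 1 further genes over 8 and 0 to 1 over 7, and a 7-array median between 0.047 and 0.17. BMPR1B kept its direction in all 18 alternatives over 8 arrays and all 17 over 7, and passed in 7 and 11 of them. Over all clusters the 18 calls were 11 with quantile normalization, 1 with the replicate block and 1 in the ordinary test, and 1 to 91 with an array left out; over 7 arrays the 91 calls were 0 in the ordinary test and 25 to 152. Genes with differences near 0 turned sign: over 8 arrays BMP1 (-0.0059 with quantile normalization), SMURF2 (-0.032 there and -0.0051 with array weights) and ID1 (-0.11 with quantile normalization and -0.022 with median centring), and over 7 LTBP3 (-0.046 and -0.022) and SMAD7 (-0.074 and -0.0076) with these scalings; the cause was not tested. Each array was left out in turn only for the 23 members and 14 further genes described by the naming rule. Among these, the 8-array ranges that crossed 0 were -0.0055 to 0.34 (ACVR1), -0.22 to 0.36 (BMP1), -0.27 to 0.67 (ID1), -0.58 to 0.19 (LTBP1), -0.0093 to 0.66 (MSTN), -0.27 to 0.16 (SMAD1) and -0.062 to 0.20 (SMURF2). Over 7 they were -0.0069 to 0.61 (BMP1), -0.24 to 0.49 (LTBP1), -0.15 to 0.17 (LTBP3), -0.29 to 0.037 (SMAD4), -0.26 to 0.43 (SMAD7) and -0.17 to 0.0044 (SMURF2). Of the 46 genes, 10 had differences of opposite sign over 8 and over 7 arrays, 8 of them outside that rule: BMP2, INHA, TGFBR3, ACVR2B, GREM1, SMAD9, SKIL and ID3.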
